A study of Homo sapiens with 4 samples.

Results

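The 39 genes described here encode aminoacyl-tRNA synthetases, the enzymes that join amino acids to their tRNAs, and the scaffold proteins of the complex that holds some of them together. They are listed by gene symbol, and all 39 were found among 58735 genes listed in an RNA-seq expression table. Of these, 20 genes encode enzymes of the cytosol, 16 encode enzymes of the mitochondrion, whose symbols end in 2, and 3 encode scaffold proteins (AIMP1, AIMP2 and EEF1E1). Total RNA was taken from cells labelled as the line NB4, which was established from acute promyelocytic leukemia. 2 control libraries came from cells that the labels give as untreated, and 2 libraries came from cells treated with GNE-987 at 25 nM for 24 h. GNE-987 is a chimeric degrader, a compound that brings its target proteins to an E3 ubiquitin ligase. Nothing in the labels says that replicates came from separate cultures, so p-values measure only the spread between these libraries, which may be technical.

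Each aminoacyl-tRNA synthetase recognizes an amino acid, activates it with ATP and transfers it to the matching tRNAs, which then carry it to the ribosome. Human cells hold separate sets of these enzymes. The cytosolic set serves translation of nuclear genes, and the mitochondrial set, also encoded in the nucleus, serves the small number of respiratory chain proteins made inside the organelle. Several cytosolic enzymes are bound in a multi-synthetase complex with AIMP1, AIMP2 and EEF1E1, and many cytosolic synthetase genes are known targets of ATF4, the transcription factor of the amino acid response. GARS1 and KARS1 make the glycine and lysine enzymes for both compartments, and EPRS1 charges both glutamate and proline tRNAs.

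Expression was given as FPKM, fragments scaled for the length of the gene and the size of the library, so that levels may be compared between genes of a library. From the smallest steps in the values, depth came to 16709587 and 16516934 recovered reads for the controls. The treated libraries held fewer, 10817711 and 11265389, and each total sums the fewest whole reads that fit every gene. The same steps showed that values had been divided by 1.38 and 1.34 times these totals in the controls but by 0.773 and 0.783 times in the GNE-987 libraries, so that values recalculated per total read moved down by 0.80 on the log2 scale in the treated libraries, and a comparison of levels between libraries therefore depends on the scaling. Markers did not match the NB4 label well. MPO, the granule peroxidase that defines promyelocytes, was at 0.0246 and 0 FPKM in the controls and at 11.8 and 11.3 FPKM with GNE-987. CTSG, a granule protease, was listed at 0 in all 4 libraries. The 12 promyelocyte and myeloid markers together summed to 13.1 and 11.2 FPKM in the controls and to 96.0 and 95.5 FPKM with GNE-987. Much of the treated sum was ITGAM, at 0 and 0.0318 FPKM in the controls and at 56.8 and 58.0 FPKM with GNE-987. They did not all rise. Of the 8 that could be tested as described next, 5 were called higher, 2 were not called and 1, CD33, was called lower (log2 fold change -1.07). These counts depend on the level filter of that test. ELANE, CTSG, CEBPA and CSF3R, low in both groups, did not pass it. MPO, ITGAM and CEBPE (0.0559 and 0.116 FPKM in the controls) passed only through their GNE-987 libraries. They could pass only by being higher there, so their calls say nothing on direction. CD33 passed only through its controls. By contrast, GATA1, the erythroid transcription factor, was at 124 and 122 FPKM in the controls and at 15.1 and 12.5 FPKM with GNE-987, and 12 erythroid markers summed to 500.3 and 468 FPKM in the controls and to 865 and 749 FPKM with GNE-987, with 6 called higher and 5 lower by the test described next. These markers moved with the treatment beside every result below, and their part in those results was not tested.

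GNE-987 was compared with control by limma on log2(FPKM + 0.1) over 16668 genes whose mean reached 0.5 FPKM. A gene was called when its unadjusted P was under 0.05 and its fold change was over 2 or under 0.5, and adjusted P refers to Benjamini-Hochberg adjustment over all tested genes. Fold changes are on the log2(FPKM + 0.1) scale, which understates the change of low genes. All 39 genes were tested, although SARS2, at 0.333 and 0.386 FPKM with GNE-987, reached the filter only through its control libraries. With GNE-987, 18 of the 39 genes were called lower, 1 was called higher and 20 were not called. Over all tested genes, 24.9% were called lower and 33.6% higher, and over the protein-coding genes among them 31.7% were called lower and 23.99% higher. The members' share called lower was 46.2%. With adjusted P in place of unadjusted P the same 1 and 18 members were called, against 33.2% and 24.6% of all tested genes. A stricter test, against a fold change of 2 itself and at adjusted P under 0.05, called 12 members lower and 0 higher, against 15.9% and 26.9% of all tested genes, and at unadjusted P under 0.05, a setting added after the data were seen, it called 12 lower and 1 higher (QARS1). In bulk RNA, fewer cells of a type and less RNA per cell cannot be told apart. Of the 39 genes, 29 had both GNE-987 libraries below both controls and 6 had both above, against 41.6% and 47.5% of all tested genes.

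The direction of a change depended on how the libraries were scaled, so each call was made under 5 scalings, namely the FPKM as given, values scaled to GAPDH, median-ratio scaling, quantile normalization and values per total recovered read. The median log2 fold change of all tested genes was 0.17 as given. It shifted by -1.77 with GAPDH, by -0.42 with quantile normalization and by -0.77 per total read, and hardly with median-ratio scaling. All 18 genes called lower were also called lower under each of the 5 scalings, and 31 of the 39 genes had log2 fold changes below 0 in all of them. No member was above 0 in all 5. GAPDH, a glycolytic enzyme often used as a scaling gene, was itself 1.85 higher on the log2 scale with GNE-987.

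**Figure D1:**
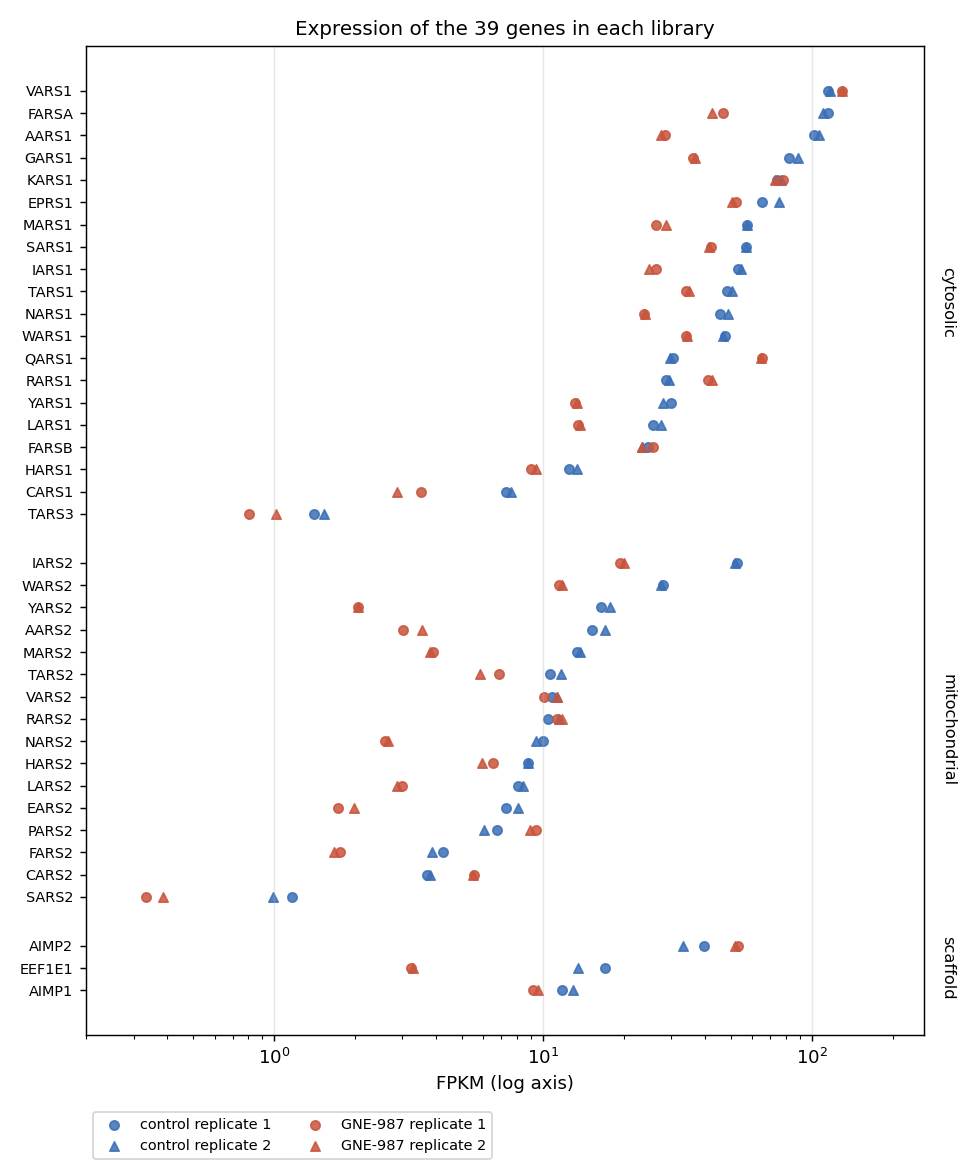
Expression of the 39 genes in each library, in FPKM on a log axis, with genes grouped as cytosolic, mitochondrial and scaffold and ordered by control mean; circles and triangles are replicates 1 and 2, blue for control and red for GNE-987. Replicates lie close together, YARS2 and EEF1E1 stand far lower with GNE-987, and QARS1 stands higher as given, which scaling to GAPDH turned to lower (-0.74 on the log2 scale).

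The mitochondrial enzymes were lower than the cytosolic enzymes in level and moved further down. Their control means ran from 1.08 to 52.2 FPKM with a median of 10.3, against 1.47 to 116 FPKM and a median of 48.3 for the cytosolic enzymes. With GNE-987 and FPKM as given, 10 of the 16 mitochondrial enzymes (62.5%) were called lower and 0 higher. Of the 20 cytosolic enzymes, 7 (35%) were called lower and 1 higher. Shares called lower were 24.9% of all tested genes and 31.7% of protein-coding genes, and the cytosolic share was close to the latter. The contrast in shares depended on the scaling. Called lower were 13 cytosolic and 10 mitochondrial enzymes after quantile normalization, 15 and 12 per total read, and 19 and 16 with GAPDH. Of all 16668 tested genes, 5464, 6723 and 9738 were called lower in the same order. Mitochondrial enzymes had a median log2 fold change of -1.30 and cytosolic enzymes one of -0.58, a gap of 0.72, beside 0.17 for all tested genes and -0.29 for protein-coding genes. Relative to the median of all genes, the mitochondrial median stood at -1.48 as given, -1.43 scaled to GAPDH, -1.29 after quantile normalization and -1.45 per total read. The cytosolic median stood at -0.76, -0.76, -0.91 and -0.76 in the same order. Summed over enzymes, the cytosolic set came to 1021 and 1049 FPKM in the controls and to 729 and 718 FPKM after treatment. The mitochondrial set summed to 207 and 211 FPKM in the controls and to 98.9 and 99.9 FPKM with GNE-987. Within a library, where a common factor cancels, the cytosolic sum of FPKM as given was 4.92 and 4.96 times the mitochondrial sum in the controls and 7.37 and 7.18 times with GNE-987, so that the groups did not overlap. With 2 libraries against 2 an exact permutation test of such a ratio cannot go below p = 0.333.

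**Figure D2:**
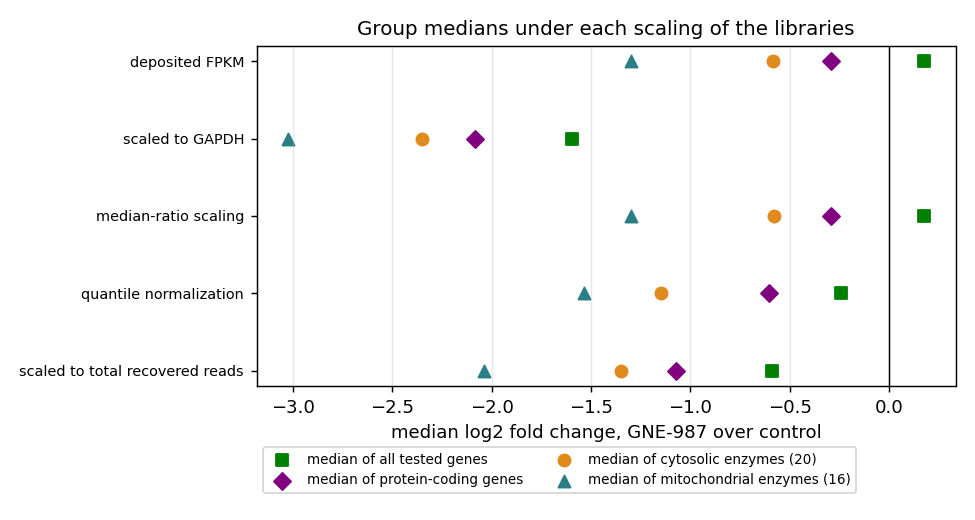
Median log2 fold change, GNE-987 over control, of the 20 cytosolic enzymes, the 16 mitochondrial enzymes, all tested genes and protein-coding genes, with 1 line for each of 5 scalings of the libraries. The medians of all genes and protein-coding genes move with the scaling, the former from 0.17 as given to -1.59 with GAPDH, and in every scaling the mitochondrial median lies below the cytosolic one.

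The tyrosine enzyme of the mitochondrion, YARS2, had the lowest log2 fold change of the 39 genes. YARS2 (chromosome 12, 32727490 to 32755897, minus strand; all gene positions are from GENCODE v44 on hg38) stood at 16.5 and 17.8 FPKM in the controls and at 2.06 and 2.05 FPKM with GNE-987. Both treated libraries were far below both controls, and the mean was 8.33-fold lower (log2 fold change -3.00, SE 0.075, limma adjusted P = 0.000142). Its treated values rested on 37 and 39 reads, and 18.1% of its exon bases are shared with a long noncoding gene on the opposite strand that was not analysed here. AARS2, the mitochondrial alanine enzyme (chromosome 6, 44298731 to 44313347, minus strand), stood at 15.2 and 17.0 FPKM in the controls and at 3.01 and 3.53 FPKM with GNE-987. This was a 4.93-fold lower mean, with no overlap of libraries (log2 fold change -2.27, SE 0.12, limma adjusted P = 0.000384). EARS2 charges mitochondrial glutamate tRNA and, in the organelle, also places glutamate on glutamine tRNA for later amidation. It stood at 7.28 and 8.07 FPKM in the controls and at 1.73 and 1.98 FPKM with GNE-987 (log2 fold change -1.99, SE 0.11, limma adjusted P = 0.000478). The treated EARS2 libraries were again both below the controls.

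The asparagine and methionine enzymes of the mitochondrion came next. NARS2 was at 10.001 and 9.43 FPKM in the controls and at 2.58 and 2.66 FPKM with GNE-987, a log2 fold change of -1.85. MARS2, which supplies the methionine used to start mitochondrial translation, was at 13.4 and 13.7 FPKM in the controls and at 3.88 and 3.79 FPKM with GNE-987, a log2 fold change of -1.80. For each of the pair the treated libraries were close to each other and clear of the controls. IARS2, the isoleucine enzyme and the mitochondrial synthetase with the highest level, stood at 52.7 and 51.7 FPKM in the controls and at 19.4 and 19.99 FPKM with GNE-987. Its log2 fold change was -1.40 (SE 0.044, limma adjusted P = 0.000183), which left it with the highest mitochondrial level in the treated libraries too. LARS2, the leucine enzyme, was at 8.06 and 8.39 FPKM in the controls and at 2.995 and 2.87 FPKM with GNE-987 (log2 fold change -1.46). WARS2, the tryptophan enzyme, was at 27.8 and 27.4 FPKM in the controls and at 11.4 and 11.8 FPKM with GNE-987 (log2 fold change -1.24). Both were without overlap.

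FARS2 and SARS2 were the mitochondrial enzymes called lower at the lowest levels. FARS2 charges phenylalanine tRNA as a lone chain, unlike the cytosolic enzyme, and stood at 4.24 and 3.85 FPKM in the controls and at 1.76 and 1.66 FPKM with GNE-987 (log2 fold change -1.19). SARS2, the serine enzyme, stood at 1.17 and 0.993 FPKM in the controls and at 0.333 and 0.386 FPKM with GNE-987 (log2 fold change -1.36, SE 0.22, limma adjusted P = 0.00707). The treated SARS2 values rested on 9 and 11 reads, and 48.2% of its exon bases are shared with an annotated readthrough gene on the same strand that was at or near 0 FPKM. With a pseudocount of 1 FPKM the log2 fold changes of FARS2 and SARS2 were -0.90 and -0.61, and neither was called.

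Another 6 mitochondrial enzymes were not called. TARS2, the threonine enzyme, was at 10.6 and 11.6 FPKM in the controls and at 6.87 and 5.84 FPKM with GNE-987, a log2 fold change of -0.80. HARS2, the histidine enzyme, was at 8.82 FPKM in both controls and at 6.53 and 5.91 FPKM with GNE-987, a log2 fold change of -0.50. For both genes the treated libraries lay below the controls by less than the fold threshold. RARS2, the arginine enzyme, was at 10.5 and 11.5 FPKM in the controls and at 11.3 and 11.8 FPKM with GNE-987, so its libraries overlapped as given (log2 fold change 0.07, SE 0.074, and -1.76 with GAPDH and -0.72 per total read). VARS2, the valine enzyme, was at 10.8 and 11.3 FPKM in the controls and at 10.1 and 11.3 FPKM with GNE-987 (log2 fold change -0.05, SE 0.081), also with overlap, and 63.0% of its exon bases are shared with a long noncoding gene on the same strand. CARS2 and PARS2, the cysteine and proline enzymes, were the mitochondrial members whose treated libraries both lay above the controls as given, which turned round when libraries were scaled to GAPDH or to total reads. CARS2 was at 3.71 and 3.79 FPKM in the controls and at 5.52 and 5.48 FPKM with GNE-987, with log2 fold changes of 0.54 as given, -1.27 with GAPDH and -0.24 per total read. PARS2 was at 6.72 and 6.01 FPKM in the controls and at 9.43 and 8.93 FPKM with GNE-987, with log2 fold changes of 0.52, -1.31 and -0.27 in the same order.

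**Figure D3:**
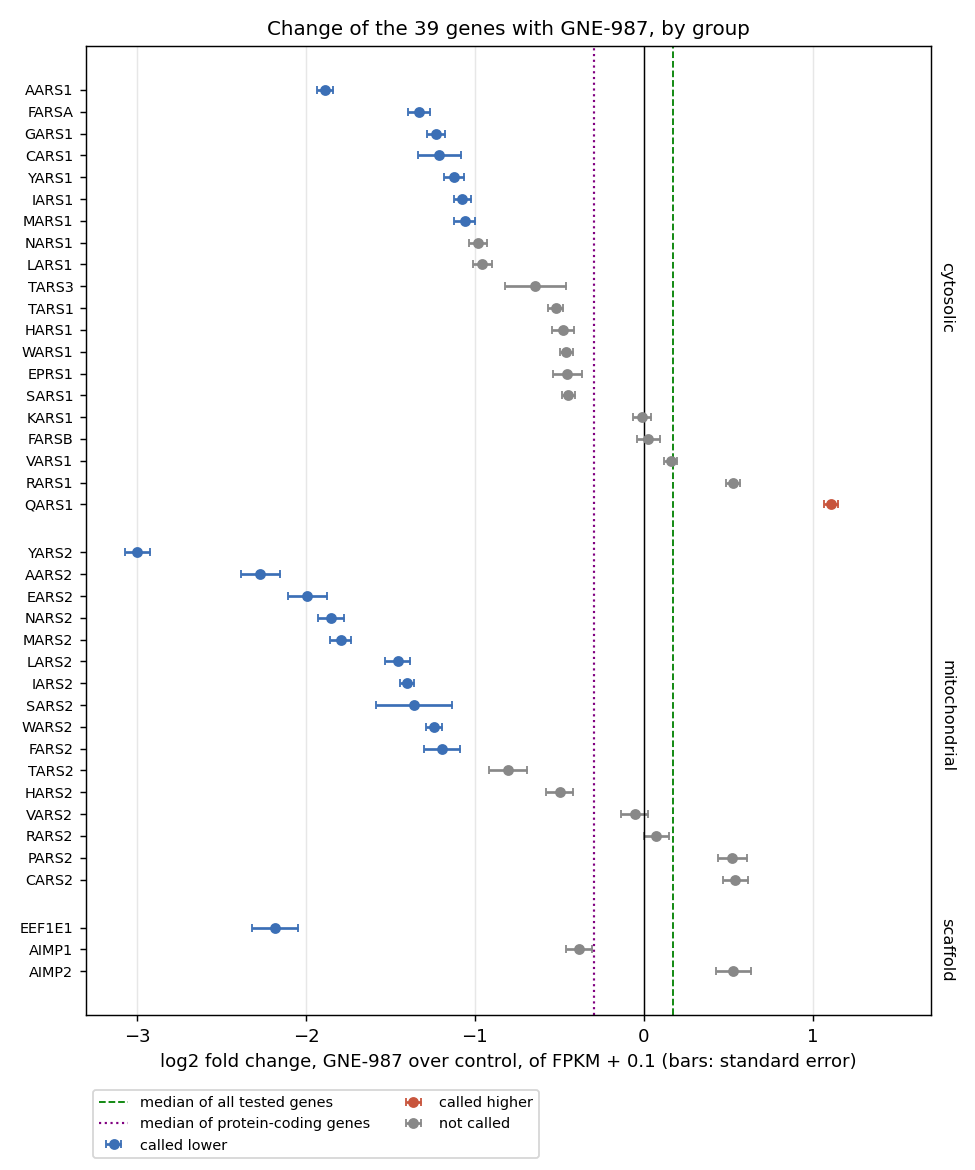
Log2 fold change of FPKM + 0.1, GNE-987 over control, for each of the 39 genes with its standard error from limma, coloured by call, beside the medians of all tested genes (dashed, 0.17) and of protein-coding genes (dotted, -0.29). The 10 mitochondrial enzymes called lower spread from -3.00 to -1.19 and the 7 cytosolic ones from -1.89 to -1.06, while QARS1 is the member called higher as given and is at -0.74 when scaled to GAPDH.

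Among the cytosolic enzymes, AARS1, the alanine enzyme (chromosome 16, 70251983 to 70289707, minus strand), changed most. It stood at 102 and 106 FPKM in the controls and at 28.5 and 27.5 FPKM with GNE-987, 3.71-fold lower in the mean (log2 fold change -1.89, SE 0.048, limma adjusted P = 0.000143). It went from the third highest level of the 39 genes in the controls to rank 12 with GNE-987. GARS1, the glycine enzyme of both compartments, was at 82.5 and 88.6 FPKM in the controls and at 36.2 and 36.7 FPKM with GNE-987 (log2 fold change -1.23). CARS1, the cysteine enzyme, was at 7.30 and 7.61 FPKM in the controls and at 3.50 and 2.86 FPKM with GNE-987 (log2 fold change -1.21, SE 0.13). YARS1, the tyrosine enzyme, was at 29.9 and 27.9 FPKM in the controls and at 13.1 and 13.3 FPKM with GNE-987 (log2 fold change -1.12). In each of these genes the treated libraries lay clear of the controls, although the test against a fold change of 2 at adjusted P under 0.05 called AARS1, GARS1 and FARSA and neither CARS1 nor YARS1.

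The cytosolic phenylalanine enzyme is built from alpha chains, encoded by FARSA, and beta chains, encoded by FARSB, in equal number. FARSA was at 115 and 109.6 FPKM in the controls and at 46.7 and 42.4 FPKM with GNE-987 (log2 fold change -1.33, SE 0.066, limma adjusted P = 0.000358). FARSB was at 24.5 and 23.4 FPKM in the controls and at 25.6 and 23.2 FPKM with GNE-987, with overlapping libraries as given (log2 fold change 0.03, SE 0.070, limma adjusted P = 0.741). This turned to -1.82 with GAPDH, -0.21 after quantile normalization and -0.77 per total read. FARSA RNA was thus 4.68 times FARSB RNA in both controls and 1.82 and 1.83 times with GNE-987, a ratio that a common factor for a library does not move. The log2 shift of the ratio was -1.36 as given and -1.94 after quantile normalization, which is not a common factor. FARSA shares 1.03% of its exon bases with an antisense gene.

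Of the cytosolic enzymes, 7 belong to the multi-synthetase complex, and they did not move together. IARS1 and MARS1 were called lower, QARS1 was called higher, and the other 4 were not called, with a median log2 fold change of -0.45. IARS1, the isoleucine enzyme, was at 53.1 and 54.7 FPKM in the controls and at 26.2 and 24.8 FPKM with GNE-987 (log2 fold change -1.08). MARS1, the methionine enzyme, was at 57.3 FPKM in both controls and at 26.2 and 28.7 FPKM with GNE-987 (log2 fold change -1.06, and -0.99 and no longer called without GNE-987 replicate 1). Neither IARS1 nor MARS1 was called in the test against a fold change of 2. MARS1 shares 5.05% of its exon bases with DDIT3 and 7.38% with ARHGAP9, both on the opposite strand. LARS1, the leucine enzyme, was at 25.6 and 27.4 FPKM in the controls and at 13.5 and 13.7 FPKM with GNE-987, a log2 fold change of -0.96 that lay just outside the fold threshold. EPRS1, the glutamate and proline enzyme, was at 65.0 and 75.6 FPKM in the controls and at 52.1 and 50.4 FPKM with GNE-987 (log2 fold change -0.45). KARS1, the lysine enzyme, was at 74.2 and 77.0 FPKM in the controls and at 77.7 and 72.6 FPKM with GNE-987, so that its libraries overlapped as given (log2 fold change -0.01, SE 0.054). RARS1, the arginine enzyme, was at 28.6 and 29.3 FPKM in the controls and at 41.2 and 42.4 FPKM with GNE-987, a log2 fold change of 0.53 as given, -1.32 with GAPDH and -0.27 per total read.

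QARS1, the glutamine enzyme of the complex, was the member called higher. QARS1 (chromosome 3, 49095932 to 49105130, minus strand) measured 30.5 and 29.7 FPKM in the controls against 65.4 and 64.7 FPKM with GNE-987. Treated libraries were above the controls as given, by 2.16-fold in the mean (log2 fold change 1.11, SE 0.041, limma adjusted P = 0.000216), but the log2 fold change was 0.59 after quantile normalization, 0.31 per total read and -0.74 with GAPDH, where it was not called higher. Relative to EPRS1 in the same library, QARS1 RNA was 0.469 and 0.393 in the controls and 1.26 and 1.28 with GNE-987. The end of USP19, a deubiquitinase gene on the same strand, lies 2916 bases before the start of QARS1, and USP19 was at 12.2 and 12.9 FPKM in the controls and at 3.71 and 3.46 FPKM with GNE-987.

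Scaffold proteins of the complex also went separate ways. EEF1E1, also known as AIMP3 or p18 (chromosome 6, 8073360 to 8102559, minus strand), measured 17.0 and 13.5 FPKM in the controls against 3.24 and 3.28 FPKM with GNE-987. Its mean was 4.68-fold lower without overlap (log2 fold change -2.18, SE 0.13, limma adjusted P = 0.00054), and 18.8% of its exon bases belong also to a readthrough gene with BLOC1S5 that was listed at 0 in all libraries. AIMP1, the source of the secreted fragment EMAP II, was at 11.7 and 12.9 FPKM in the controls and at 9.20 and 9.60 FPKM with GNE-987 (log2 fold change -0.38, not called). AIMP2, around which the complex is assembled, was at 39.8 and 33.0 FPKM in the controls and at 53.1 and 51.7 FPKM with GNE-987, with log2 fold changes of 0.53 as given, -1.32 with GAPDH and -0.27 per total read. AIMP2 shares 29.1% of its exon bases with EIF2AK1 on the opposite strand, a gene at 68.2 and 67.2 FPKM in the controls and at 50.6 and 50.0 FPKM with GNE-987. Reads of the 2 genes cannot be told apart there unless counting used strand, which is not given in the sources used here.

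The remaining cytosolic enzymes were not called. NARS1, the asparagine enzyme, was at 45.5 and 48.6 FPKM in the controls and at 23.7 and 23.97 FPKM with GNE-987, a log2 fold change of -0.98 just outside the fold threshold. Without control replicate 1, NARS1 and LARS1 were called lower at -1.03 and -1.01. TARS1, the threonine enzyme, was at 48.3 and 50.6 FPKM in the controls and at 34.0 and 34.8 FPKM with GNE-987 (log2 fold change -0.52). SARS1, the serine enzyme, was at 56.9 FPKM in both controls and at 42.1 and 41.4 FPKM with GNE-987 (log2 fold change -0.45). WARS1, the tryptophan enzyme that interferon induces, was at 47.3 and 46.7 FPKM in the controls and at 34.0 and 34.3 FPKM with GNE-987 (log2 fold change -0.46). HARS1, the histidine enzyme, was at 12.5 and 13.3 FPKM in the controls and at 9.03 and 9.42 FPKM with GNE-987 (log2 fold change -0.48). TARS3, a second cytosolic threonine enzyme, had the lowest cytosolic level, at 1.41 and 1.53 FPKM in the controls and 0.809 and 1.01 FPKM with GNE-987 (log2 fold change -0.64, SE 0.18). In all 6 genes the treated libraries lay below the controls. VARS1, the valine enzyme, had the highest level of the 39 genes in both groups, at 114 and 117 FPKM in the controls and at 129 FPKM in both GNE-987 libraries. Its log2 fold change was 0.16 as given and turned to -1.69 with GAPDH, -0.90 after quantile normalization and -0.64 per total read.

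For amino acids with a cytosolic and a mitochondrial enzyme, a common factor applied to a library cancels in the ratio of their RNA, but quantile normalization, which moves genes by their rank, does not cancel. Over 18 such pairs, with EPRS1 set against both EARS2 and PARS2, both FARSA and FARSB against FARS2 and both TARS1 and TARS3 against TARS2, the mean log2 ratio of cytosolic to mitochondrial RNA was higher with GNE-987 in 15 and lower in 3. Libraries did not overlap in 13 of the 15 and in all 3, and the median shift was 0.43 on the log2 scale. Such separation was common in these data. For the FPKM of single genes, both treated libraries lay below both controls in 41.6% of all tested genes and above in 47.5%. The fitted shift, the difference between the limma log2 fold changes of a pair, includes the pseudocount and had a median of 0.42 as given. After quantile normalization the fitted shift was above 0 in 10 pairs and below 0 in 8, with a median of 0.18, so the direction over the pairs depends on the scaling. Alanine (-0.16), histidine (-0.04), threonine (-0.22 for TARS1 and -0.94 for TARS3) and valine (-0.82) were the pairs that turned. The pairs share genes and libraries and are not independent. The widest shift was for tyrosine, where YARS1 RNA was 1.82 and 1.57 times YARS2 RNA in the controls and 6.39 and 6.49 times with GNE-987, a log2 shift of 1.93. The fitted shift of this pair was 1.88 as given and 1.93 after quantile normalization. For glutamate, the ratio of EPRS1 to EARS2 went from 8.93 and 9.37 to 30.1 and 25.5, a log2 shift of 1.60 (fitted shift 1.54 as given and 1.13 after quantile normalization). For cysteine the order of the pair changed over. CARS1 RNA was 1.97 and 2.01 times CARS2 RNA in the controls and 0.634 and 0.521 times with GNE-987, a log2 shift of -1.79 (fitted shift -1.75 as given and -1.78 after quantile normalization). Proline also went this way, with a ratio of EPRS1 to PARS2 of 9.68 and 12.6 in the controls and of 5.52 and 5.64 with GNE-987. The histidine genes HARS1 and HARS2 stand head to head on chromosome 5, share 108 exon bases on opposite strands, and had ratios of 1.41 and 1.51 in the controls and 1.38 and 1.59 with GNE-987, which overlapped.

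**Figure D4:**
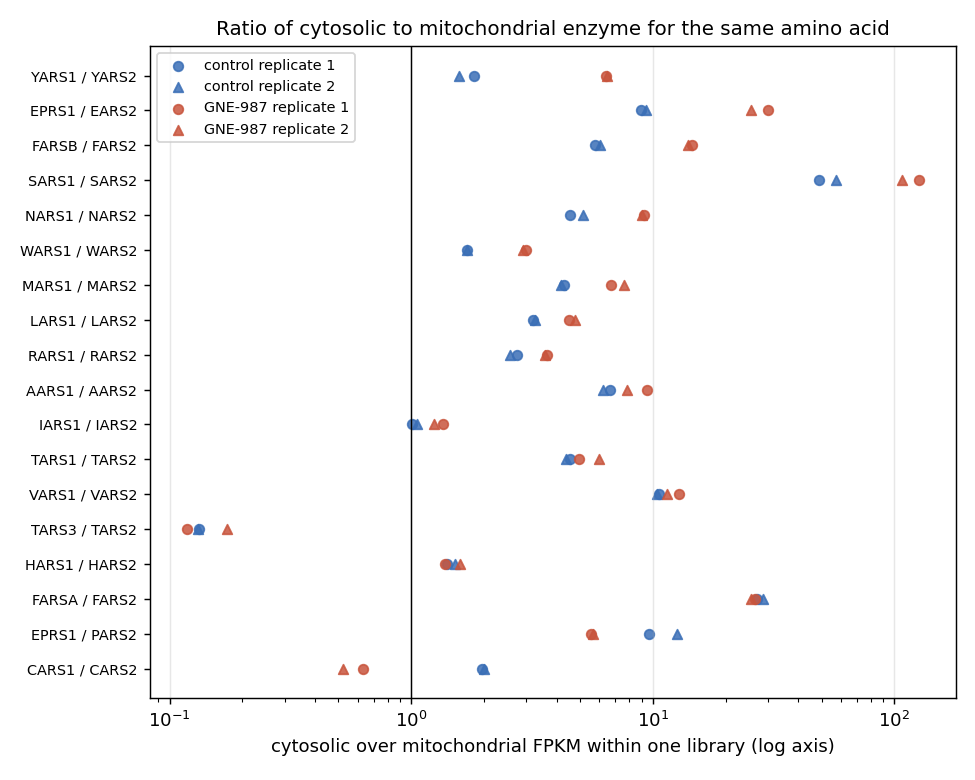
Ratio of cytosolic to mitochondrial FPKM within each library, on a log axis, for 18 pairs of enzymes that charge the same amino acid, ordered by their shift with GNE-987; circles and triangles are replicates 1 and 2, and the vertical line marks a ratio of 1. Ratios of the FPKM as given are higher with GNE-987 in 15 pairs (10 after quantile normalization), most for YARS1 over YARS2, and CARS1 over CARS2 crosses from above 1 in both controls to below 1 in both GNE-987 libraries.

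Synthetases fall into 2 structural classes that share no fold, and EPRS1, which joins an enzyme of each, was counted in neither. With FPKM as given, 4 of 9 cytosolic and 6 of 9 mitochondrial class I enzymes were called lower. Of the class II enzymes, 3 of 10 cytosolic and 4 of 7 mitochondrial ones were called lower. The mitochondrial share was thus the larger in either class as given, but the contrast over both classes depended on the scaling. Beside these counts and those of the next division, 24.9% of all tested genes were called lower and 33.6% higher. Over protein-coding genes the shares were 31.7% and 23.99%, and the class II cytosolic share called lower was close to the former. A further division of the cytosolic enzymes follows prior knowledge of ATF4 targets. Among 13 genes known to respond to ATF4, 6 were called lower and 0 higher, with a median log2 fold change of -0.98 and a range from -1.89 to 0.16. Among the other 7 cytosolic genes, 1 was called lower (FARSA) and 1 higher (QARS1), with a median of -0.01. The highest of the 13, VARS1, was above 0 only as given and with median-ratio scaling.

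Start site windows were then searched for the letters TGATGNAA, the core of the element that C/EBP and ATF4 bind together, on both strands. Windows ran from 250 bases before to 50 bases after the start in RefSeq on GRCh38.p14, and 45 windows of 33 members were found. The members without a window were AARS2, LARS1, TARS3, VARS1, VARS2 and YARS1. The letters were in 3.62% of all 35116 windows and in 8 of the 45 member windows (17.8%), for 8 genes. Of these, 7 encode cytosolic enzymes and 1, YARS2, a mitochondrial enzyme. The stricter TGATGCAA was in 0.866% of all windows and in 6 member genes, AARS1, CARS1, IARS1, MARS1, NARS1 and TARS1, all of which are among the 13 ATF4-responsive genes. The stretches around the match are shown for the genes of this group called lower, with the matched letters in capitals, written 5′ to 3′ on the strand of the gene. Where the match is on the other strand, TTGCATCA or TTTCATCA is the reverse complement. The AARS1 stretch is chr16:70289676-70289753 on the minus strand, CARS1 chr11:3057408-3057485 on the minus strand, GARS1 chr7:30594785-30594862 on the plus strand, IARS1 chr9:92293693-92293770 on the minus strand, MARS1 chr12:57488004-57488081 on the plus strand and YARS2 chr12:32756077-32756147 on the minus strand.
AARS1: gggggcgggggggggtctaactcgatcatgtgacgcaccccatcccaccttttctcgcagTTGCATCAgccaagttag
CARS1: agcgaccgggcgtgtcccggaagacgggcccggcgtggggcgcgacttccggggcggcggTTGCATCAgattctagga
GARS1: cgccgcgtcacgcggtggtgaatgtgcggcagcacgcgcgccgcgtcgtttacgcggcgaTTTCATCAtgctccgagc
IARS1: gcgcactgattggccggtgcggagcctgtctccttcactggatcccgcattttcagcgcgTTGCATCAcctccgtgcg
MARS1: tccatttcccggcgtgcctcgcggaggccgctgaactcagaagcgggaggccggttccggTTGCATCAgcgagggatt
YARS2: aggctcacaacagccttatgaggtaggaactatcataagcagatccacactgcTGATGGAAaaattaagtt

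The 7 cytosolic enzymes with the letters (AARS1, CARS1, GARS1, IARS1, MARS1, NARS1 and TARS1) all had log2 fold changes below 0, 5 were called lower, and their median was -1.08. Of 9 cytosolic enzymes with a window and no match, 1 was called lower and 1 higher, with a median of -0.45. Shares called lower and higher were 24.9% and 33.6% over all tested genes and 31.7% and 23.99% over protein-coding genes. Counted from the start of the window's transcript, the match begins at -2 in CARS1, -4 in MARS1, -13 in IARS1, -33 in GARS1, -187 in AARS1 and -197 in YARS2. A match is a description of the sequence, and no binding was measured here. The E-box CACGTG, which MYC and its relatives bind and which reads the same on both strands, was in 7.26% of all windows and in 6 member windows (13.3%) of 5 genes. These were AIMP2, CARS2, EARS2, IARS1 and MARS2, of which EARS2, IARS1 and MARS2 were called lower. The stretches of EARS2 (chr16:23557350-23557425, minus strand) and MARS2 (chr2:197705298-197705373, plus strand) are given as mitochondrial enzymes called lower with this motif, shown in capitals.
EARS2: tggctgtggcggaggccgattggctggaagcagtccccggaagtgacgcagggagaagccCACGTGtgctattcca
MARS2: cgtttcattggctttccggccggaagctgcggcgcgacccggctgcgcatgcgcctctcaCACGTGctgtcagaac

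Other genes of tRNA charging and the genes that make and export tRNA were set beside the synthetases. Of 13 tested genes on a list of other charging factors, 5 (38.5%) were called lower and 1 (7.69%) higher, with a median log2 fold change of -0.80. The shares called lower and higher were 24.9% and 33.6% over all tested genes and 31.7% and 23.99% over protein-coding genes, and the list's share called lower was close to the latter. QRSL1, a subunit of the amidotransferase that completes mitochondrial glutamine tRNA after EARS2 has loaded it, was at 5.47 and 6.29 FPKM in the controls and at 1.16 and 0.893 FPKM with GNE-987 (log2 fold change -2.41). DTD2, a proofreading deacylase, had a log2 fold change of -1.98, with 55.9% of its exon bases shared with a noncoding gene on the opposite strand. TRNAU1AP, a factor of selenocysteine insertion, was at 3.20 and 3.51 FPKM in the controls and at 55.3 and 60.03 FPKM with GNE-987 (log2 fold change 4.06), well outside the range of the 39 members. Of 25 tested genes of tRNA maturation and export, 12 (48%) were called lower and 1 (4%) higher, with a median of -0.997. XPOT, the exporter of tRNA from the nucleus, was at 35.7 and 37.8 FPKM in the controls and at 4.52 and 4.88 FPKM with GNE-987 (log2 fold change -2.94). TSEN54, of the tRNA splicing endonuclease, had a log2 fold change of -2.38, and HSD17B10, a subunit of mitochondrial RNase P, one of 1.37 as given, 0.28 after quantile normalization, 0.56 per total read and -0.49 with GAPDH, where it was no longer called.

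ATF4 itself was not called as given and stood at 116 and 118 FPKM in the controls and at 142 and 134 FPKM with GNE-987 (log2 fold change 0.23 as given, -1.62 with GAPDH, -0.85 after quantile normalization and -0.57 per total read), and it was called lower with GAPDH alone. Of 23 tested genes of the ATF4 stress response, 11 (47.8%) were called lower and 5 (21.7%) higher, beside 24.9% and 33.6% of all tested genes and 31.7% and 23.99% of protein-coding genes, with a median of -0.76 and a range from -4.06 to 4.36, beside -3.00 to 1.11 for the synthetases and scaffolds. TRIB3, a pseudokinase that ATF4 induces, was at 53.6 and 48.7 FPKM in the controls and at 4.21 and 4.39 FPKM with GNE-987 (log2 fold change -3.54), and STC2, a secreted glycoprotein, had a log2 fold change of -4.06. ASNS, which makes asparagine, was at 0.887 and 1.11 FPKM in the controls and at 11.1 and 11.2 FPKM with GNE-987 (log2 fold change 3.37), although 49.3% of its exon bases are shared with a noncoding gene on the same strand. ATF3, a transcription factor of the same family, had a log2 fold change of 4.36. XPOT is on this list as well, and without it 10 of 22 were called lower.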

How the data were processed

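The labels describe 4 RNA libraries made with the Illumina TruSeq kit. Reads were filtered and mapped by the authors with HISAT2 (version 2.0.5, build hg38, per the submitters' processing notes), and the deposited table holds FPKM values per gene. The counting program and annotation are not given in the sources used here. All 4 value columns were used and 0 were left out. Of 58735 gene identifiers, 58207 (99.1%) were matched to GENCODE v44 for symbols, positions and exon overlap.

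Whole reads were recovered from the FPKM steps (tolerance 0.01 read). At the annotated exon length, 53.0% of 32895 genes above 0 came out whole, and the others at a searched length. The read totals are therefore the fewest that fit.

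GNE-987 was compared with control on log2(FPKM + 0.1) by limma (version 3.58.1, R 4.3.3), empirical Bayes with intensity trend, no replicate block, in place of the count test of the study's methods, since no counts were used. The fit was tested on simulated data with known changes. Alternatives covered scaling, pseudocount, filter, adjusted P, a test against a fold change of 2, limma-voom on recovered reads, a replicate block and leaving out each library. Same-numbered libraries did not deviate together (correlation 0.0054).

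All 39 members are named. From the lists of charging, maturation and ATF4 genes, up to 2 largest increases and 2 largest decreases among called genes are named, and of markers MPO and GATA1. ATF4, CTSG, ITGAM, CD33, USP19 and genes that overlap a member were added after values were seen. Members and lists were chosen with earlier results of these data known. Sequences are from RefSeq.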

Additional observations from a re-analysis of the deposited data

How the results depend on the processing

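Scaling moved the results most. Members called higher numbered 1 as given and 0 with GAPDH scaling, quantile normalization, scaling to total reads or the test against a fold change of 2. Members called lower numbered 18 as given, 38 with GAPDH and 29 per total read. The cytosolic median log2 fold change was -2.35 with GAPDH, -1.15 with quantile normalization, -1.35 per total read and -0.48 with a pseudocount of 1. The mitochondrial median was -3.02, -1.54, -2.04 and -1.04 in the same order, and -1.24 with a mean of at least 1 FPKM. The cytosolic minus mitochondrial median was 0.67 with GAPDH, 0.39 with quantile normalization, 0.56 with a pseudocount of 1 and 0.66 with a mean of at least 1 FPKM. Direction turned for QARS1 (-0.74) with GAPDH, for RARS1 (-1.32 and -0.27), CARS2 (-1.27 and -0.24), PARS2 (-1.31 and -0.27) and AIMP2 (-1.32 and -0.27) with GAPDH and per total read, and for VARS1 with GAPDH (-1.69), quantile normalization (-0.90) and per total read (-0.64). FARSB (-1.82 with GAPDH, -0.21 with quantile normalization, -0.77 per total read) and RARS2 (-1.76 with GAPDH, -0.72 per total read), not called as given, also turned. The test against a fold change of 2, which was called at adjusted P, called 12 members lower. Without 1 library at a time, 17 to 20 members were called lower and 1 higher, and the cytosolic median ran from -0.66 to -0.50, the mitochondrial from -1.34 to -1.24 and their gap from 0.61 to 0.80. Limma-voom on the recovered reads called 18 lower and 1 higher.

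Over all genes, 5602 were called higher and 4148 lower, so 57.5% of calls were higher, against 23.7% with GAPDH (3031 and 9738), 43.7% with quantile normalization (4235 and 5464) and 38.2% per total read (4147 and 6723). The test against a fold change of 2 called 4478 and 2647, a pseudocount of 1 called 4744 and 2954, and no filter on low values called 8757 and 5146. Replicate numbers only name the libraries. With the replicate block, 1 member was called higher and 18 lower, no member's call changed, and 5667 genes were called higher and 4186 lower in all.

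With 2 libraries in each group, neither the cultures behind them nor the variation between cultures can be judged. Depth limits SARS2 most, at 9 reads in the lowest library, and 31 of 39 members had at least 100 recovered reads in every library. Which scaling matches the RNA content of the cells was not tested, nor was protein.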
